A study of Mus musculus with 36 samples.

Results

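The insulin receptor signalling genes described here were 10 genes picked by symbol from the 20098 genes listed for each library: *Insr*, *Irs1*, *Irs2*, *Pik3r1*, *Akt1*, *Akt2*, *Foxo1*, *Foxo3*, *Grb10* and *Grb14*. All 10 were found. The rule for a member was its symbol and held no threshold on a measured value, but the set was proposed with earlier results of these data known. RNA was sequenced from lung and liver of male wild-type C57BL/6J mice, 36 libraries in all, with 6 groups of 3 in each tissue. T1DE and T1DC mice were made diabetic with streptozotocin, 50 mg/kg once a day for 5 days, and ate a normal diet. DIOE and DIOC mice ate a diet with 45% of its energy from fat, for 6 weeks before and then throughout the exposure. NDE and NDC mice ate the normal diet without streptozotocin. In each pair the letter E marks mice that breathed ambient PM2.5 in ventilated cages for 4 weeks, and C marks mice that breathed filtered air there. Mice were 14 weeks old when exposure began and 18 weeks old when it ended. Streptozotocin kills pancreatic beta cells and is itself a toxin, so T1D groups carry both the loss of insulin and the drug. The study fasted mice for its glucose and insulin measurements, but whether they were fasted when tissue was taken, and at which hour that was, is not stated in the sources used here.

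Insulin binds a receptor tyrosine kinase that phosphorylates IRS proteins, and these recruit the lipid kinase PI3K. PI3K then activates the kinase AKT, which keeps FOXO transcription factors out of the nucleus, and GRB10 and GRB14 bind the activated receptor and restrain it. In liver this chain lowers the output of glucose and raises the synthesis of lipid, and in the fasted mouse liver FOXO1 and other factors raise *Irs2* and *Igfbp1* transcription, which insulin represses. Most of the chain is set by phosphorylation, which messenger RNA levels do not show.

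Values are FPKM as deposited, fragment counts divided by gene length and by the mapped fragments of the library. A gene was tested by limma on log2(FPKM + 1) if it reached 1 FPKM in at least 3 libraries of a tissue, and it passed at an adjusted p under 0.05 over all genes of that comparison. Differences are log2 fold changes on this FPKM + 1 scale, which understates the change of low genes. This left 13973 genes in lung and 10806 in liver. All 10 signalling genes were tested in lung and 9 in liver, where *Grb10* stayed under that limit. The depth of sequencing is unknown, but the depth of each library relative to its tissue's median, read from the steps between low values, ran from 0.984 to 1.04 in lung and from 0.942 to 1.098 in liver. Lung identity markers summed to between 50948 and 84091 FPKM in lung against 39.6 to 144 FPKM in liver, and hepatocyte markers to between 18.7 and 645 FPKM in lung against 42239 to 78403 FPKM in liver, so the tissue labels fit the markers. T1DE liver replicate 3 stood apart by its pancreas markers, which summed to 1968 FPKM against 0.49 to 2.62 FPKM in the other 17 liver libraries. In bulk tissue, fewer cells of a type and less RNA per cell cannot be told apart. Replicates are not said in the labels to be separate animals, so p-values measure the spread between these libraries.

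All 10 genes were detected in all 36 libraries, with a wide range of levels. In NDC liver the mean ran from 0.507 FPKM for *Grb10* and 1.78 FPKM for *Irs1* to 30.1 FPKM for *Grb14* and 40.1 FPKM for *Akt2*, and 92.7% of genes lay below *Akt2*. Mean levels in NDC lung ran from 2.91 FPKM for *Irs1* to 63.1 FPKM for *Akt2* and 80.2 FPKM for *Akt1*, above 95.7% of genes. *Irs2*, the adaptor that joins the receptor to PI3K and the main IRS protein of liver beside *Irs1*, varied most. Its highest of the 18 liver values was 8.78 times its lowest, and its median coefficient of variation within a group was 33.6%. Lung *Akt1*, by contrast, spanned 1.15-fold over 18 libraries, with a median coefficient of variation of 4.59%.

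**Figure D1:**
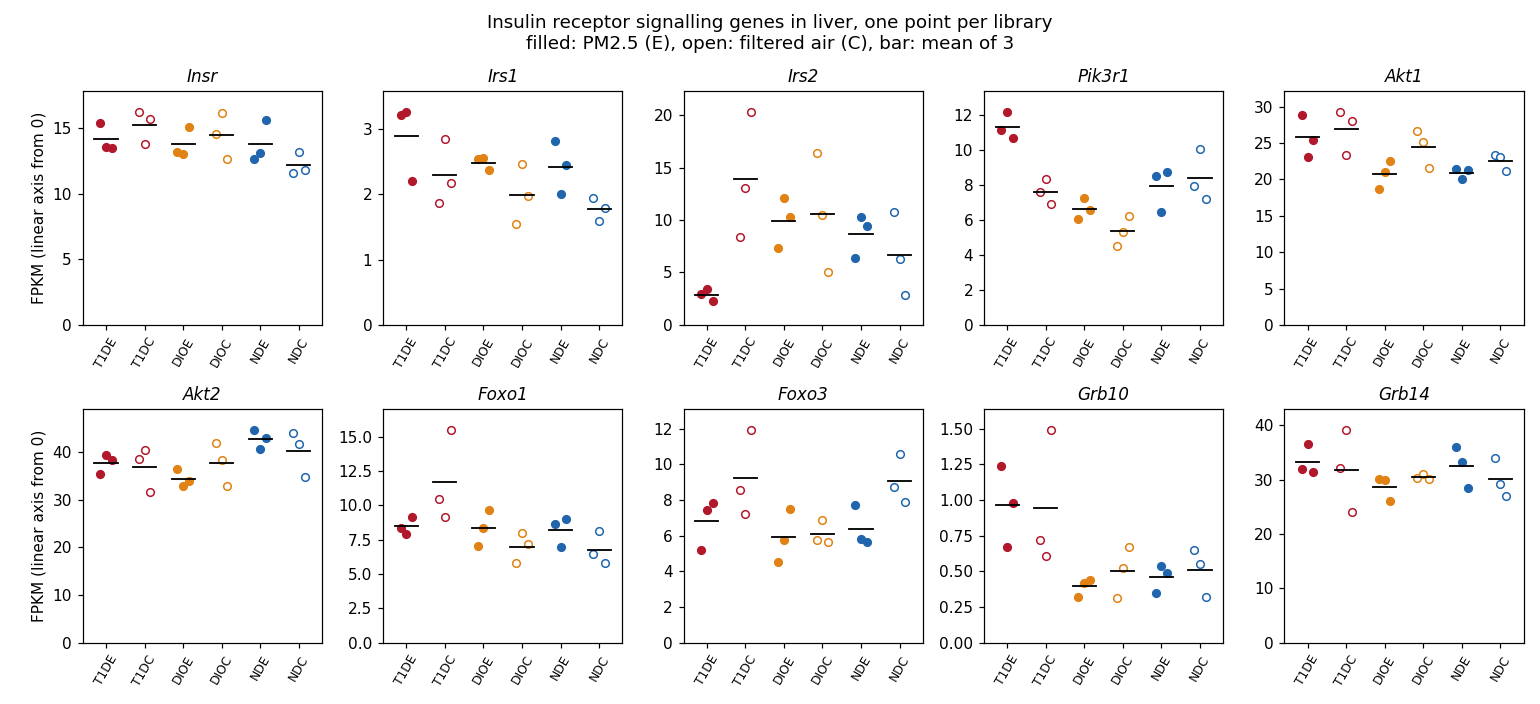
Levels of the 10 insulin receptor signalling genes in liver. Each panel is 1 gene, the y axis is FPKM on a linear scale from 0, points are the 3 libraries of a group (filled for PM2.5, open for filtered air) and bars are means. *Irs2* was lowest in T1DE, at 2.31 to 3.41 FPKM, and *Pik3r1* was highest there, at 10.7 to 12.2 FPKM.

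The receptor differed little between groups. *Insr* encodes the insulin receptor itself and had 15.4, 13.6 and 13.5 FPKM in T1DE livers and 16.2, 13.8 and 15.7 FPKM in T1DC livers. The other groups lay at 13.2, 13.03 and 15.1 FPKM in DIOE, 14.6, 16.2 and 12.7 FPKM in DIOC, 12.7, 13.1 and 15.6 FPKM in NDE and 11.6, 13.2 and 11.8 FPKM in NDC. All 3 T1DC libraries stood above all 3 NDC libraries, and the other pairs of groups that were compared overlapped. That difference, 0.30 on the log2 scale (SE 0.11), had an adjusted p of 0.075 by limma and did not pass, though it did without T1DC replicate 2 (0.36, adjusted p = 0.0345).

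*Irs2* (gene 384783, GRCm38.p6 chr8:10984681-11008929) had the largest difference of the members between liver groups. In T1DE livers it had 2.97, 3.41 and 2.31 FPKM, a mean of 2.90 ± 0.55 FPKM (SD, n = 3). T1DC livers had 8.42, 13.03 and 20.3 FPKM, a mean of 13.9 ± 6.0 FPKM (SD, n = 3). The ranges of these groups did not overlap, and T1DC was the most dispersed of the 6 groups in FPKM. *Irs2* fell in T1DE against T1DC by 1.87 on the log2 scale (SE 0.39, 95% interval -2.70 to -1.03, limma adjusted p = 0.0253). This was the 1 call among 9 members tested in that comparison, where 1.58% of all genes passed. The call was lost without T1DC replicate 3 (-1.57, adjusted p = 0.0745) and without T1DE replicate 1 (adjusted p = 0.0933), 2 (0.0594) or 3 (0.103), and also when the 2 groups were fitted alone (adjusted p = 0.071). Over all alternatives its adjusted p ran from 0.0207 to 0.103 and its difference from -2.16 to -1.57.

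The other exposed groups had more *Irs2* than T1DE as well. Its level was 7.35, 12.1 and 10.3 FPKM in DIOE livers and 6.43, 10.3 and 9.39 FPKM in NDE livers, all above the highest T1DE library. *Irs2* fell in T1DE against DIOE by 1.47 (SE 0.39, limma adjusted p = 0.00619) and in T1DE against NDE by 1.30 (SE 0.39, limma adjusted p = 0.0228). Of the 10 member calls between liver groups, only the one against DIOE held in every alternative, with adjusted p from 0.00084 to 0.0249. The one against NDE was lost without NDE replicate 2 (adjusted p = 0.0748) or 3 (0.0566) and without T1DE replicate 1 (0.0587) or 3 (0.0715), over a range of 0.00206 to 0.0748. In T1DE against NDE, 2 of 9 members passed where 30.9% of all genes did, and in T1DE against DIOE 3 of 9 passed where 58.8% did, so the members' share was below the background in both.

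In filtered air *Irs2* did not separate the states. DIOC livers had 16.4, 10.5 and 5.04 FPKM and NDC livers 10.8, 6.30 and 2.90 FPKM, and both ranges ran into that of T1DC. T1DC against NDC gave 1.02 (SE 0.39, limma adjusted p = 0.0931). NDC replicate 3 was as low as the T1DE libraries. The difference between the PM effects of T1D and ND mice was -2.33 for *Irs2* (SE 0.56, 95% interval -3.51 to -1.14, limma adjusted p = 0.0897). None of the 9 members passed in this test of the difference, where 0.416% of all genes did. An unadjusted p under 0.05 was found for 3 of the 9, beside 9.7% of all genes. Leaving out NDC replicate 1 brought *Irs2* past the threshold (-2.71, adjusted p = 0.0461), and over its alternatives the adjusted p ran to 0.214. The fall of *Irs2* under PM2.5 in T1D mice was thus not shown to differ from the change in ND mice.

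The promoters of both IRS genes and of *Igfbp1* are shown because *Irs2* and *Igfbp1* both had large differences and all 3 genes hold the core of the insulin response element, CAAAACA, to which FOXO factors bind. Each run is the 250 bases before the RefSeq start on the gene's own strand (GRCm38.p6), and capitals mark CAAAACA or its reverse complement TGTTTTG. The windows are chr8:11008930-11009179 for *Irs2* and chr1:82291440-82291689 for *Irs1*, both on the minus strand, and chr11:7197537-7197786 for *Igfbp1* on the plus strand.
Irs2: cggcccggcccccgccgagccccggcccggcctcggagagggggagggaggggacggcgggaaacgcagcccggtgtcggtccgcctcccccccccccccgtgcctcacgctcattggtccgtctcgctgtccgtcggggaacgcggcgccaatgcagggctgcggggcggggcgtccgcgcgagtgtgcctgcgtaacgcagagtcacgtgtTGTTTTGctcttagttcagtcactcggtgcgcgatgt
Irs1: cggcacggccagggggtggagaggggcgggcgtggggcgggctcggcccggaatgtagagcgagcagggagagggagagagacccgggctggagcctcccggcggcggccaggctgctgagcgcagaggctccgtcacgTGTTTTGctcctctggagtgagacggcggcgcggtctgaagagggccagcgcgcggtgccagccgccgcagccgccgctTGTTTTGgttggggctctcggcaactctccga
Igfbp1: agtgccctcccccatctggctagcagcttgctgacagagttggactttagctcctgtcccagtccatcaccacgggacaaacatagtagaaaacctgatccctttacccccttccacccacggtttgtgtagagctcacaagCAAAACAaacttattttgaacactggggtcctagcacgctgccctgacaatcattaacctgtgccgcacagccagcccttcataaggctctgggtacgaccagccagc
The match lay 37 to 31 bases before the start in *Irs2*, 111 to 105 and 32 to 26 bases before it in *Irs1*, and 108 to 102 bases before it in *Igfbp1*. Either strand of these 7 letters occurred in 1827 of 32851 upstream windows, or 5.56%. The related FOXO element GTAAACA occurred in 1040 windows, or 3.17%, and among the members in 1 window of *Akt1*, 161 to 155 bases before the start. Of the members, 9 had a window in the RefSeq table, and *Insr* was not in it.

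*Irs1*, the other IRS adaptor, was low in liver and passed in no comparison. It had 3.22, 3.26 and 2.20 FPKM in T1DE, 1.87, 2.85 and 2.17 FPKM in T1DC, 2.54, 2.56 and 2.37 FPKM in DIOE, 1.54, 2.46 and 1.97 FPKM in DIOC, 2.82, 2.01 and 2.45 FPKM in NDE and 1.95, 1.60 and 1.80 FPKM in NDC. NDE lay wholly above NDC, at a difference of 0.30 with a limma adjusted p of 0.907, and T1DE overlapped every other group it was set against. The ratio of *Irs2* to *Irs1* within a library does not depend on how libraries are scaled, and it was looked at after the values were seen. It was 0.922, 1.05 and 1.05 in T1DE livers, against 1.61 to 10.6 in the 15 other liver libraries. T1DE was therefore the only liver group in which the IRS genes stood at about equal FPKM.

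**Figure D2:**
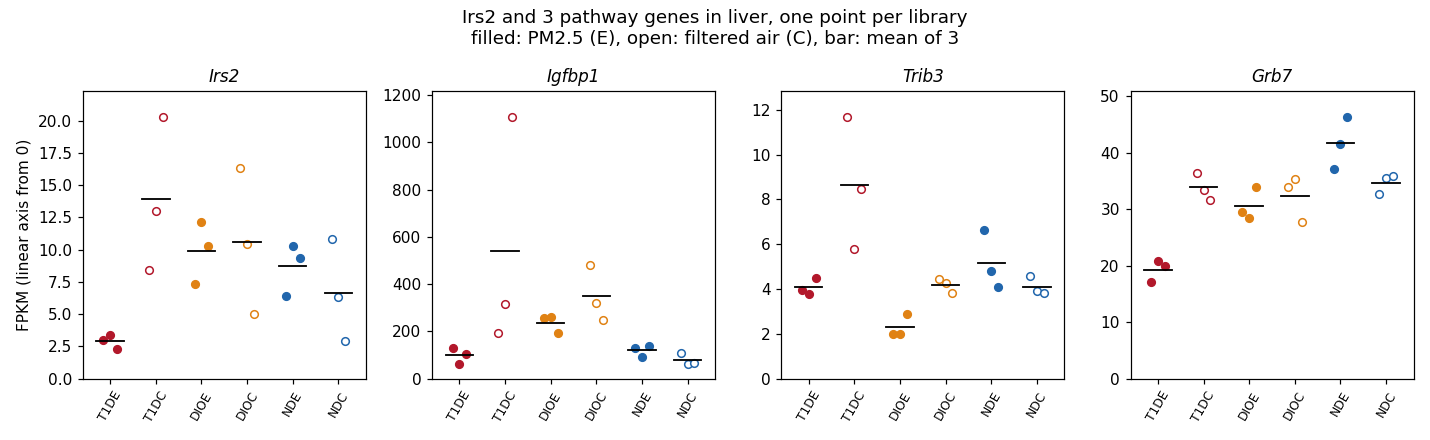
*Irs2* and 3 genes of the insulin pathway in liver. The y axis is FPKM on a linear scale from 0, points are libraries (filled for PM2.5, open for filtered air) and bars are means of 3. In T1DC replicate 3 *Irs2* reached 20.3 FPKM and *Igfbp1* 1106 FPKM, the highest of the 18 liver values of each, and *Grb7*, an adaptor, was lowest in T1DE, at 17.0 to 20.8 FPKM.

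*Pik3r1* (gene 18708, chr13:101680761-101768217) encodes p85alpha, the main regulatory subunit of PI3K, which ties the catalytic subunit to IRS proteins. It had 11.2, 12.2 and 10.7 FPKM in T1DE livers (mean 11.3 ± 0.76 FPKM, SD, n = 3), 6.09, 7.29 and 6.56 FPKM in DIOE livers and 8.55, 6.48 and 8.75 FPKM in NDE livers. Every T1DE library was above every library of the other 5 groups. *Pik3r1* rose in T1DE against DIOE by 0.69 (SE 0.13, limma adjusted p = 0.0009) and in T1DE against NDE by 0.47 (SE 0.13, limma adjusted p = 0.0158). The call against NDE was lost without NDE replicate 2 (adjusted p = 0.0811) or T1DE replicate 2 (0.0566), and adjusted p over its alternatives ran from 0.0161 to 0.283. Against T1DC, at 7.61, 8.33 and 6.94 FPKM, the difference was 0.52 (SE 0.13) with a limma adjusted p of 0.0663, and no alternative brought it under 0.0585.

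In filtered air the DIO group was the one that stood apart for *Pik3r1*. DIOC livers had 4.54, 5.32 and 6.26 FPKM and NDC livers 7.95, 10.04 and 7.21 FPKM, without overlap. *Pik3r1* fell in DIOC against NDC by 0.56 (SE 0.13, limma adjusted p = 0.0382), the 1 call among 9 members where 2.22% of all genes passed. It was lost without NDC replicate 1 (adjusted p = 0.093) or 2 (0.17) and without DIOC replicate 1 (0.175) or 2 (0.0876), over a range of 0.0253 to 0.175. T1DC also lay wholly above DIOC, by 0.44 (SE 0.13, limma adjusted p = 0.0342), and there 2 of 9 members passed where 15.6% of all genes did. That call was lost without T1DC replicate 1 (adjusted p = 0.103) or 2 (0.0693) and without DIOC replicate 1 (0.134) or 2 (0.0716), over a range of 0.0298 to 0.209.

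AKT is the kinase that carries the signal on, and *Akt2* is its main form in hepatocytes. *Akt1* (gene 11651, chr12:112653821-112674884) had 28.8, 23.2 and 25.5 FPKM in T1DE livers, against 18.6, 21.0 and 22.6 FPKM in DIOE livers, 21.4, 20.1 and 21.2 FPKM in NDE livers and 29.2, 23.4 and 28.1 FPKM in T1DC livers. T1DE lay above DIOE and NDE without overlap and within the range of T1DC on 2 of its 3 libraries. As deposited and with all groups fitted, *Akt1* passed in T1DE against DIOE only, at 0.30 (SE 0.11, limma adjusted p = 0.027), and this value was -0.13 (adjusted p = 0.354) after the scaling described below. It was also lost without DIOE replicate 1 (adjusted p = 0.118) or 2 (0.0513) and without T1DE replicate 1 (0.126) or 3 (0.0544), over a range of 0.02 to 0.354. T1DE against NDE gave 0.29 (SE 0.11, limma adjusted p = 0.0552) and passed with the groups fitted alone (adjusted p = 0.0406) and without T1DE replicate 2 (0.36, adjusted p = 0.0447). T1DC livers also lay wholly above NDC livers, at 23.3, 23.1 and 21.1 FPKM, by 0.24 (SE 0.11, limma adjusted p = 0.138), which passed without T1DC replicate 2 (0.34, adjusted p = 0.0386).

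*Akt2* passed in no liver comparison as deposited. It had 35.4, 39.4 and 38.3 FPKM in T1DE livers and 44.6, 40.6 and 42.9 FPKM in NDE livers, which did not overlap, with a difference of -0.18 on the log2 scale. After scaling that difference was -0.47 with an adjusted p of 0.0254. DIOE livers, at 36.4, 32.9 and 33.9 FPKM, also lay wholly below NDE livers, by -0.30 with a limma adjusted p of 0.173.

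*Foxo1* (gene 56458, chr3:52268337-52350109) encodes the transcription factor that AKT inactivates and that drives *Igfbp1* and the genes of glucose output in liver. It had 10.4, 9.13 and 15.5 FPKM in T1DC livers (mean 11.7 ± 3.4 FPKM, SD, n = 3), against 5.77, 7.99 and 7.21 FPKM in DIOC livers and 6.43, 8.11 and 5.78 FPKM in NDC livers. The T1DC range stood clear of both. *Foxo1* rose in T1DC against NDC by 0.69 (SE 0.17, limma adjusted p = 0.0191), the 1 call among 9 members where 13.5% of all genes passed, and in T1DC against DIOC by 0.65 (SE 0.17, limma adjusted p = 0.0202). Without T1DC replicate 3, which had the highest *Foxo1*, *Irs2* and *Igfbp1* of all liver libraries, neither call held (0.48, adjusted p = 0.072, and 0.44, adjusted p = 0.0702). The call against NDC was also lost without NDC replicate 1 (0.0669) or 3 (0.093), over a range of 0.00455 to 0.143. The call against DIOC was also lost without DIOC replicate 1 (0.0846), over a range of 0.006 to 0.117.

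Exposed livers did not differ in *Foxo1* in this way. It had 8.32, 7.95 and 9.18 FPKM in T1DE, 7.07, 8.35 and 9.70 FPKM in DIOE and 8.66, 6.97 and 9.01 FPKM in NDE, and all 3 ranges overlapped. T1DE against T1DC gave -0.39 (SE 0.17, limma adjusted p = 0.37) and did not pass.

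*Foxo3*, its relative, passed in no liver comparison with all libraries. It had 5.19, 7.42 and 7.80 FPKM in T1DE, 8.53, 7.19 and 11.9 FPKM in T1DC, 4.53, 5.77 and 7.51 FPKM in DIOE, 5.77, 6.88 and 5.62 FPKM in DIOC, 7.73, 5.81 and 5.63 FPKM in NDE and 8.74, 10.6 and 7.90 FPKM in NDC. NDC lay wholly above NDE and DIOC, and T1DC wholly above DIOC. NDE against NDC gave -0.45 (limma adjusted p = 0.863) and DIOC against NDC gave -0.50 (limma adjusted p = 0.197). T1DC against DIOC gave 0.50 (SE 0.19, limma adjusted p = 0.0786) and passed without T1DC replicate 2 (0.65, adjusted p = 0.0295). Within a library, the ratio of *Foxo1* to *Foxo3* was 0.736, 0.766 and 0.732 in NDC livers and between 1.00 and 1.60 in the 15 other liver libraries. Unexposed mice on the normal diet were thus the only group with less *Foxo1* than *Foxo3* in liver, a ratio that was looked at after the values were seen.

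The adaptor proteins that restrain the receptor showed no call in liver. *Grb14*, which is abundant in liver, had 32.0, 36.5 and 31.4 FPKM in T1DE livers, 30.2, 29.9 and 26.1 FPKM in DIOE livers and 36.02, 33.3 and 28.5 FPKM in NDE livers. T1DE lay above DIOE without overlap, at 0.21 on the log2 scale, and did not pass. *Grb10* had 1.24, 0.67 and 0.98 FPKM in T1DE livers, 0.72, 0.61 and 1.49 FPKM in T1DC livers and 0.31 to 0.67 FPKM in the 12 others, under the limit for testing. When genes under that limit were kept, its difference in T1DE against DIOE was 0.49 with an adjusted p of 0.0209.

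PM2.5 made no member pass in livers of ND or DIO mice. In NDE against NDC 0 of 9 members passed by limma, where 0.00925% of all genes passed, and 1 had an unadjusted p under 0.05, beside 5.34% of all genes. In DIOE against DIOC 0 of 9 passed by limma, where 0.00% of all genes passed, and 0 had an unadjusted p under 0.05, beside 13.8% of all genes. The *Irs2* difference there was 0.01 with a 95% interval of -0.82 to 0.85, an interval wide enough to hold changes of more than 1.5-fold either way. In DIOE against NDE 0 of 9 passed by limma, where 1.42% of all genes passed, and 1 had an unadjusted p under 0.05, beside 18.4% of all genes. The difference between the PM effects of DIO and ND mice had 0 of 9 passing by limma, where 0.00% of all genes passed, and 0 at an unadjusted p under 0.05, beside 5.75% of all genes. Over the 9 comparisons of 2 liver groups, 10 of 81 member tests passed, on 4 genes. That is 12.3% of the member tests, beside 13.8% of the tests of all genes, so the members passed at about the share of liver genes in general.

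The level of the typical gene and the sums of some cell markers also differed between groups. Without further scaling the median of all liver genes was 0.16 higher in T1DC than NDC, 0.23 higher in T1DE than NDE and 0.35 higher in T1DE than DIOE on the log2 scale. Hepatocyte markers, all 8 of them detected, summed to 42239 to 52005 FPKM in T1DE and 44186 to 52832 FPKM in T1DC, below the 55151 to 78403 FPKM of the 12 other livers. Kupffer cell and macrophage markers summed to 243 to 300 FPKM in T1DE livers, against 106 to 142 FPKM in DIOE livers and 106 to 204 FPKM in NDE livers. In filtered air their sums overlapped, at 159 to 270.0 FPKM in T1DC, 159 to 214 FPKM in DIOC and 193 to 219 FPKM in NDC livers. Clock output genes, which follow the time of day, summed to 28.2 to 45.3 FPKM in T1DE, 43.5 to 78.4 FPKM in T1DC and 24.4 to 36.8 FPKM in DIO livers, against 97.5 to 113 FPKM in ND livers. The part of these in the member results was not tested.

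Median-ratio scaling, which sets the typical gene level between libraries, showed which member values stood apart from that shift. *Irs2* kept its calls, at -1.90 in T1DE against T1DC (adjusted p = 0.0275), -1.53 in T1DE against NDE (0.0192) and -1.83 in T1DE against DIOE (0.00509). *Pik3r1* kept its fall in DIOC against NDC (-0.54, adjusted p = 0.0253) but none of its rises, at 0.29 in T1DE against DIOE (0.105), 0.20 in T1DE against NDE (0.283) and 0.26 in T1DC against DIOC (0.209). *Foxo1* kept its rise in T1DC against NDC (0.51, adjusted p = 0.0435) and not that in T1DC against DIOC (0.45, 0.0629). *Insr* passed after scaling in T1DE against DIOE, at -0.38 (adjusted p = 0.0106), where its value as deposited was 0.04. Without T1DE replicate 3, the library with pancreas markers, *Irs2* was at -1.36 (adjusted p = 0.0247) and *Pik3r1* at 0.73 (0.00311) in T1DE against DIOE.

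**Figure D3:**
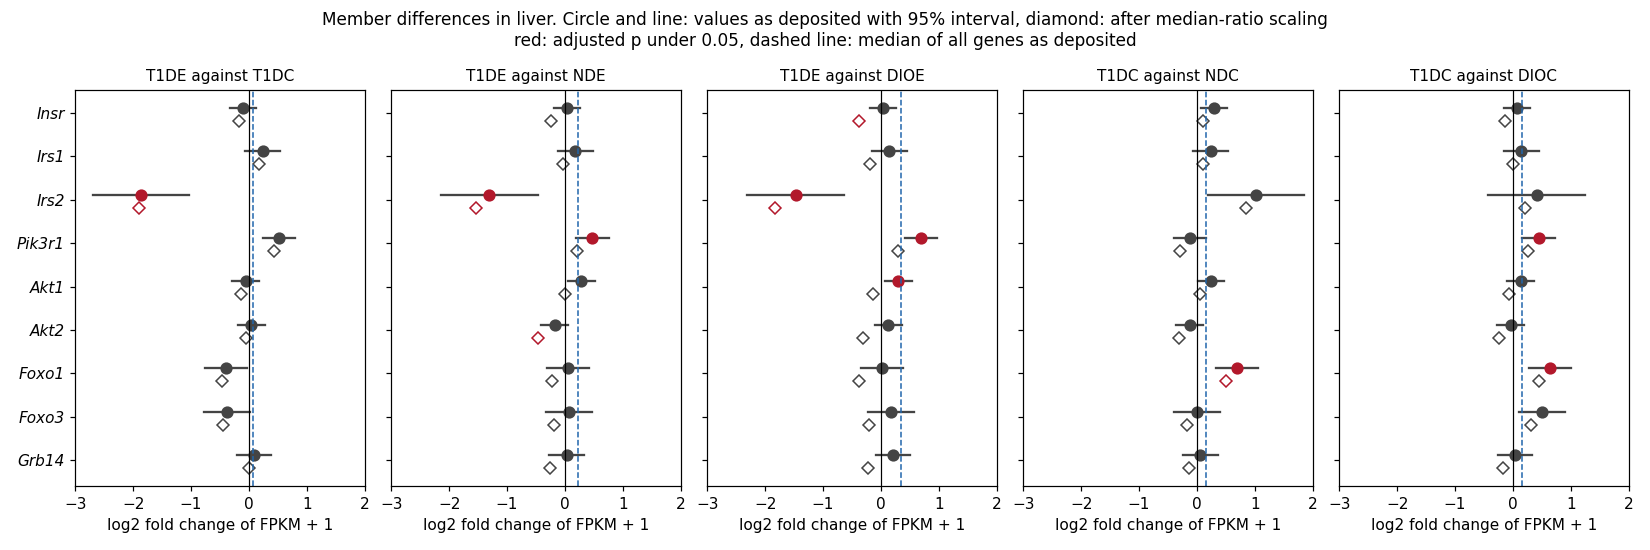
Differences of 9 signalling genes in liver, for 5 comparisons that involve T1D mice. The x axis is the log2 fold change of FPKM + 1, circles with lines are values as deposited with 95% intervals, diamonds are values after median-ratio scaling, red marks an adjusted p under 0.05, and the dashed line is the median of all genes as deposited. *Irs2* was below -1 in each T1DE panel on both scales, while the *Akt1* value in T1DE against DIOE moved to -0.13 after scaling.

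The rest of the pathway was followed in 7 lists of genes that are not members. In T1DE against DIOE, 7 of 10 genes of PI3K and its phosphatases, 6 of 17 of AKT, mTOR and effectors, 3 of 10 adaptors, and 1 of 3 ligands and IGF receptors rose, and 1 adaptor fell. After scaling these were 2 rises for PI3K, 1 rise and 1 fall for AKT, 1 rise and 1 fall for adaptors, and 1 rise and 1 fall for ligands. Of all genes 58.8% passed in this comparison, and 18.4% after scaling. *Pik3r3*, another regulatory subunit of PI3K, is in these counts and was higher in T1DE livers on both scales. It reached the limit for testing only through the T1DE livers, so its calls do not stand as support for a rise. It had 1.65, 1.21 and 1.37 FPKM in T1DE livers, against 0.06, 0.36 and 0.37 FPKM in DIOE livers and 0.44, 0.59 and 0.40 FPKM in NDE livers. Its difference was 0.94 in T1DE against DIOE (limma adjusted p = 3.92e-05, 0.76 after scaling) and 0.70 in T1DE against NDE (limma adjusted p = 0.000712, 0.55 after scaling), at levels near 1 FPKM. *Inppl1*, the lipid phosphatase SHIP2, rose in T1DE against DIOE by 0.74 (0.34 after scaling, both passing).

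The median difference of the 10 PI3K genes in T1DE against DIOE was 0.41, beside 0.35 for all genes, and that of the members was 0.15. In T1DE against NDE, 5 of 10 PI3K genes, 4 of 17 AKT genes and 2 of 10 adaptors rose and 1 adaptor fell, against 1, 0 and 0 rises and 2 adaptors that fell after scaling, where 30.9% of all genes passed (13.1% after scaling). In T1DC against NDC, 3 of 10 PI3K genes, 2 of 17 AKT genes and 1 of 10 adaptors rose, against 1, 0 and 0 after scaling, where 13.5% of all genes passed (6.60% after scaling). For ligands, receptor inhibitors and insulin-repressed genes in T1DE against NDE there were 1, 2 and 1 rises and 0, 1 and 2 falls, and after scaling 1, 0 and 1 rises and 0, 2 and 4 falls. In T1DC against DIOC, where 15.6% of all genes passed (8.10% after scaling), 1 ligand, 1 adaptor, 1 PI3K gene and 2 inhibitors rose. After scaling the rises there were 1, 0, 1 and 1. In DIOE against NDE, where 1.42% of all genes passed (1.09% after scaling), 2 inhibitors and 1 insulin-induced gene fell. After scaling 1 inhibitor and 1 insulin-induced gene fell there, and 1 insulin-repressed gene rose. *Igf2*, a fetal growth factor ligand, is the ligand in these counts and was higher in T1D livers on both scales. It reached the limit for testing only through the T1D livers, so its calls do not stand as support for a rise. It had 1.38, 1.18 and 1.61 FPKM in T1DE and 2.64, 0.70 and 1.64 FPKM in T1DC, against 0.03 to 0.45 FPKM in the 12 other livers, and its difference was 1.09 in T1DE against NDE (limma adjusted p = 0.00143) and 1.06 in T1DC against NDC (0.00402, but 0.113 when those groups were fitted alone). *Ins2*, one of the mouse insulin genes, was listed at 0 in all 12 ND and DIO livers, and stood at 0.39, 0.38 and 0.76 FPKM in T1DE and 0.37, 0 and 0.66 FPKM in T1DC livers. The 0.76 FPKM was in T1DE replicate 3, the library with 1968 FPKM of pancreas markers, and the part of pancreas RNA in that value was not tested.

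Among receptor inhibitors and phosphatases, 6 of 15 rose and 1 fell in T1DE against DIOE, and after scaling 0 rose and 4 fell (58.8% and 18.4% of all genes passed). *Trib3*, a pseudokinase that binds AKT, fell in T1DE against T1DC. It had 3.94, 3.78 and 4.50 FPKM in T1DE livers, against 11.7, 5.79 and 8.47 FPKM in T1DC livers, with no overlap. The difference was -0.88 (SE 0.19, limma adjusted p = 0.0255, -0.93 after scaling), and it was lost when either T1DC replicate 1 (adjusted p = 0.092) or 3 (0.0519), or any T1DE library (0.0594 to 0.111), was left out. Its adjusted p over the alternatives ran from 0.00369 to 0.239. *Trib3* rose in T1DC against NDC by 0.88 (limma adjusted p = 0.00931), where NDC livers had 4.57, 3.90 and 3.83 FPKM, and this call was lost when the groups were fitted alone (0.113, over a range from 0.000544). *Insig1*, listed here but a sterol sensor that acts on SREBP rather than on the receptor, fell in DIOC against NDC by 1.91 (limma adjusted p = 0.00389) and was the 1 gene of this list to pass there.

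Genes that insulin represses through FOXO1 were followed as a list. Whether they read out the insulin state of these mice was not tested. *Igfbp1*, an IGF binding protein secreted by liver and strongly repressed by insulin, had 194, 315 and 1106 FPKM in T1DC livers, 479, 318 and 249 FPKM in DIOC livers and 107, 61.8 and 66.6 FPKM in NDC livers. Both groups lay wholly above NDC. *Igfbp1* rose in T1DC against NDC by 2.41 (SE 0.46, limma adjusted p = 0.00525) and in DIOC against NDC by 2.13 (SE 0.46, limma adjusted p = 0.0244). The T1DC call was lost when the groups were fitted alone (adjusted p = 0.107, over a range from 0.00168). The DIOC call was lost without NDC replicate 2 (adjusted p = 0.11) or 3 (0.0642) and without DIOC replicate 1 (0.12) or 2 (0.0596), and with no filter (0.0617), over a range from 0.0026. T1DE livers had 129, 63.5 and 106 FPKM, all below the lowest T1DC library, and *Igfbp1* fell in T1DE against T1DC by 2.08 (SE 0.46, limma adjusted p = 0.0288). This fall was lost without T1DC replicate 3 (-1.36, adjusted p = 0.0514), without T1DE replicate 1 (0.0733), 2 (0.138) or 3 (0.086), with no filter (0.0584) and with the groups alone (0.323), over a range from 0.0101.

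*Igfbp1* and *Irs2* thus had their highest liver value in the same library, T1DC replicate 3. Both lay below every T1DC library in all 3 T1DE libraries, but the T1DE range of each overlapped that of NDC. The median difference of all genes in T1DC against NDC was 0.16 (-0.00286 after scaling). That of the 15 insulin-repressed genes tested was 0.44 (0.31 after scaling). Of them 4 rose in T1DC against NDC and 1 after scaling (13.5% and 6.60% of all genes passed), 2 rose in DIOC against NDC (2.22%), and 1, *Igfbp1*, fell in T1DE against T1DC (1.58%). In T1DE against DIOE 4 rose and 5 fell, and after scaling 0 rose and 7 fell (58.8% and 18.4%). Those that fell on both scales there included *Pdk4*, a kinase that shuts down pyruvate dehydrogenase in fasting (-1.79, limma adjusted p = 0.0148), *Txnip*, which glucose induces (-1.31, 0.0169), and *G6pc*, the last enzyme of glucose output (-1.17, 0.0184). Leaving out DIOE replicate 2 ended all 3 calls (*Pdk4* -1.41, 0.0671, *Txnip* -1.10, 0.0649, *G6pc* -0.98, 0.0693), and that of *G6pc* was also lost without T1DE replicate 1 (0.0628) or 3 (0.0529). *Ppargc1a* went the other way in T1DE against DIOE, by 0.96 as deposited (limma adjusted p = 0.0134). This rise was lost after scaling (0.62, 0.152) and without T1DE replicate 1 (0.72, 0.072). The rises in DIOC against NDC were those of *Igfbp1* and *Ccng2*, a cyclin that FOXO factors induce. *Ccng2* rose there by 1.06 (limma adjusted p = 0.0121) and held in all 11 alternatives. It also rose in T1DC against NDC by 0.81 (0.0195). That call was lost after scaling (0.64, 0.0669), with the groups alone (0.167) and without NDC replicate 3 (0.0942) or T1DC replicate 3 (0.0572). *G6pc* had 107, 161 and 115 FPKM in T1DE livers, against 201, 367 and 306 FPKM in DIOE livers. *Pck1*, the first enzyme of gluconeogenesis, had 1568, 1313 and 1522 FPKM in T1DE livers and 1827, 1684 and 2399 FPKM in T1DC livers, ranges that stood apart, and its difference of -0.41 had a limma adjusted p of 0.29.

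Genes that insulin induces did not move as a block. Of 9 tested, 4 rose and 1 fell in T1DE against DIOE (2 and 1 after scaling), 3 rose and 1 fell in T1DE against NDE (1 and 1), 5 rose in T1DC against DIOC (3) and 3 rose in T1DC against NDC (1), while 1 rose and 2 fell in DIOC against NDC. The share of all genes passing was 58.8% in T1DE against DIOE (18.4% after scaling), 30.9% in T1DE against NDE (13.1%), 15.6% in T1DC against DIOC (8.10%), 13.5% in T1DC against NDC (6.60%) and 2.22% in DIOC against NDC. *Fasn*, the fatty acid synthase, had 16.7, 19.2 and 18.4 FPKM in T1DE livers, against 5.93, 5.97 and 5.54 FPKM in DIOE livers, with a difference of 1.48 (limma adjusted p = 3.92e-05, 1.08 after scaling). *Scd1*, the stearoyl-CoA desaturase, was lower in T1DE livers, at 45.1, 159 and 183 FPKM, against 1917, 1270 and 924 FPKM in NDE livers. Its difference was -3.57 (SE 0.97, limma adjusted p = 0.0142), lost without NDE replicate 1 (adjusted p = 0.0505) or T1DE replicate 1 (0.0694). In T1DC livers *Scd1* had 156, 3109 and 48.6 FPKM, a range that covers every other liver library but T1DE replicate 1.

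The genes most like each member that passed were found by Pearson r of log2(FPKM + 1) over the 18 liver libraries, which share their groups. *Irs2* was nearest to *Zfp949* (0.82), *Irf2bp2* (0.82) and *Ip6k2* (0.81). *Pik3r1* was nearest to *Noct* (0.92), *Etohi1* (0.90) and *Gm14440* (0.89). *Foxo1* was nearest to *Ddit4* (0.88), *Sik3* (0.87) and *Myc* (0.87), and *Akt1* to *Mast2* (0.95), *Lrch1* (0.92) and *Senp3* (0.91). These coefficients describe the libraries and carry no test.

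In lung no member passed by limma in any comparison. Of 90 member tests between 2 groups, 0 passed by limma and 12 had an unadjusted p under 0.05, all in comparisons with a T1D group. Over the same comparisons that is 13.3% of the member tests, beside 9.28% of the tests of all genes. By comparison, 3 of 10 members had an unadjusted p under 0.05 in T1DE against T1DC (11.8% of all genes had one and 0.272% passed), T1DC against NDC (12.5% and 0.107%), T1DE against NDE (12.7% and 0.551%) and T1DE against DIOE (18.1% and 1.24%). None had one in NDE against NDC (1.65% and 0.00%), DIOE against DIOC (2.5% and 0.00%), DIOC against NDC (11.1% and 0.115%), DIOE against NDE (4.91% and 0.0286%) and T1DC against DIOC (8.19% and 0.0286%). The difference between PM effects had none either, whether of DIO and ND mice (1.92% and 0.00%) or of T1D and ND mice (6.05% and 0.00716%). The members' 0 stands beside backgrounds of at most 1.24%, so it sets them apart from few other lung genes.

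**Figure D4:**
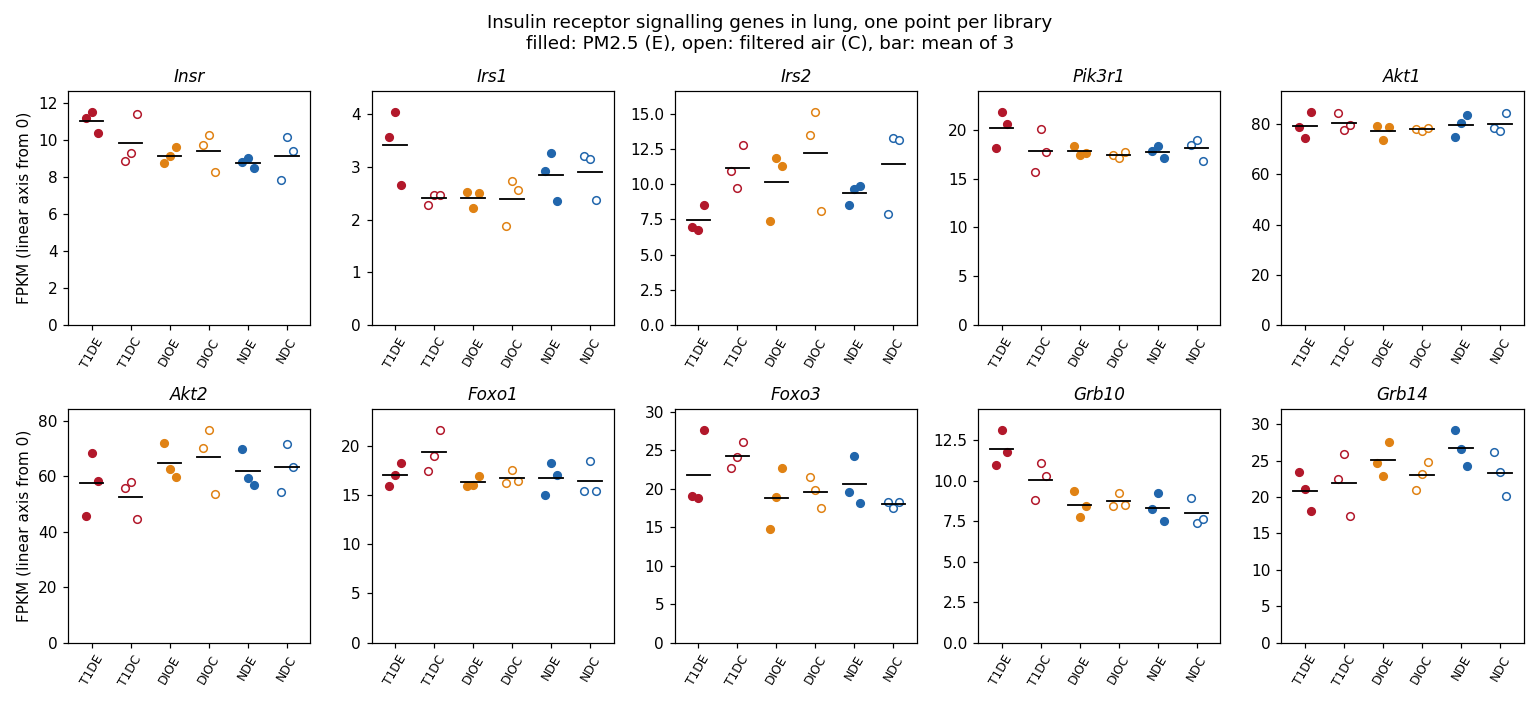
Levels of the 10 insulin receptor signalling genes in lung. Each panel is 1 gene, the y axis is FPKM on a linear scale from 0, points are the 3 libraries of a group (filled for PM2.5, open for filtered air) and bars are means. *Grb10* in T1DE, at 11 to 13.2 FPKM, stood above all NDE and DIOE libraries, and *Akt1* kept between 73.8 and 84.8 FPKM in all 18.

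*Grb10*, the inhibitory adaptor, came nearest to passing. In lung it had 11, 13.2 and 11.8 FPKM in T1DE, 8.83, 11.1 and 10.3 FPKM in T1DC, 9.39, 7.75 and 8.44 FPKM in DIOE, 8.45, 9.23 and 8.52 FPKM in DIOC, 8.26, 9.24 and 7.51 FPKM in NDE and 8.97, 7.37 and 7.66 FPKM in NDC. T1DE lay above DIOE and NDE without overlap, and overlapped T1DC. The difference was 0.45 in T1DE against DIOE (95% interval 0.22 to 0.67, limma adjusted p = 0.0523) and 0.47 in T1DE against NDE (0.25 to 0.70, 0.0626). Neither passed in any of 12 alternatives, with adjusted p from 0.0541 to 0.234 and from 0.0545 to 0.32. Skeletal muscle and squamous markers differed between lung libraries and groups. They summed to 1116 and 923 FPKM in T1DE replicate 2, against 21.6 to 39.0 and 1.31 to 9.50 FPKM in the other T1DE lungs. Their sums were 406 to 1309 and 717 to 1924 FPKM in DIOE, and 10.5 to 27.1 and 0.95 to 4.73 FPKM in NDE lungs. In T1DC lungs they were 329 to 1044 and 778 to 1617 FPKM. Adipocyte markers summed to 26.2, 1087 and 965 FPKM and brown adipocyte markers to 8.80, 807 and 118 FPKM in T1DE lungs. These sums were 546 to 826 and 143 to 591 FPKM in DIOE, 395 to 822 and 27.1 to 462 FPKM in NDE, and 89.3 to 231 and 25.3 to 40.4 FPKM in T1DC lungs. With marker levels as covariates the *Grb10* differences were 0.54 against DIOE (adjusted p = 0.2) and 0.40 against NDE (0.193).

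*Grb14* was lower in the same T1DE lungs, at 23.4, 21.2 and 18.1 FPKM, against 29.2, 26.7 and 24.2 FPKM in NDE lungs, without overlap. The difference was -0.34 (limma adjusted p = 0.316). The ratio of *Grb14* to *Grb10*, looked at after the values were seen, was 2.13, 1.61 and 1.54 in T1DE lungs, against 2.63 to 3.27 in DIOE and 2.88 to 3.54 in NDE lungs.

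The IRS adaptors of lung had differences of opposite sign in T1DE against T1DC, and neither passed. *Irs2* had 6.98, 6.77 and 8.52 FPKM in T1DE lungs, against 10.9, 9.75 and 12.8 FPKM in T1DC lungs, and the groups did not overlap. The difference was -0.53 (95% interval -1.01 to -0.04, limma adjusted p = 0.376). *Irs1* had 3.57, 4.04 and 2.65 FPKM in T1DE lungs, against 2.27, 2.47 and 2.47 FPKM in T1DC lungs, a difference of 0.36 (limma adjusted p = 0.314). Within libraries *Irs2* over *Irs1* was 1.96, 1.68 and 3.22 in T1DE lungs, against 4.81, 3.95 and 5.16 in T1DC lungs.

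The receptor and the FOXO genes of lung had differences under 0.5 on the log2 scale, none of which passed. *Insr* had 11.2, 11.5 and 10.4 FPKM in T1DE lungs, all above the 8.85, 9.04 and 8.48 FPKM of NDE lungs, with a difference of 0.30 (limma adjusted p = 0.232). *Foxo3* had 22.7, 24.1 and 26.1 FPKM in T1DC lungs, all above the 18.3, 17.5 and 18.3 FPKM of NDC lungs, with a difference of 0.41 (limma adjusted p = 0.327). *Foxo1* had 17.5, 19.0 and 21.6 FPKM in T1DC and 15.4, 18.5 and 15.4 FPKM in NDC lungs, which overlapped. *Pik3r1* ranged over 15.7 to 21.8 FPKM and *Akt2* over 44.6 to 76.6 FPKM in the 18 lungs, and both overlapped in each of the 9 pairs of groups compared.

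Of the pathway lists, lung had 2 genes that passed. *Ccng2*, a cyclin that FOXO factors induce, had 32.6, 34.7 and 34.6 FPKM in T1DE lungs, against 23.0, 21.8 and 21.6 FPKM in DIOE lungs and 17.9, 22.7 and 23.3 FPKM in NDE lungs. It rose in T1DE against NDE by 0.66 (limma adjusted p = 0.0159) and against DIOE by 0.60 (0.0283), and stood above every other lung library in all 3 T1DE lungs. The call against NDE was lost without NDE replicate 1 or T1DE replicate 2, and that against DIOE without any T1DE library or DIOE replicate 2 or 3, at adjusted p up to 0.0711 and 0.122. Both were also lost with the groups fitted alone (0.244 and 0.142) and with marker levels as covariates (0.0954 and 0.18). *Cblb*, a ubiquitin ligase, rose in T1DE against DIOE by 0.67 (limma adjusted p = 0.0253), a call lost without DIOE replicate 2 or T1DE replicate 1 or 2 (adjusted p up to 0.112), with the groups alone (0.151) and with marker covariates (0.169). The clock output genes summed to 44.7 to 47.6 FPKM in T1DE lungs, against 35.4 to 50.01 FPKM in DIO lungs and 86.2 to 123 FPKM in NDE lungs, and their part in these results was not tested.

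Lung and liver were set against each other in unexposed mice on the normal diet. As deposited, all 10 members passed in NDC lung against NDC liver, where 88.8% of all genes did, and 8 were higher in lung. The median of all genes moved by -1.10 on the log2 scale when libraries were scaled, so most of these directions rest on the scale. *Grb10* and *Akt1* were higher in lung on both scales. *Grb10* had 8.97, 7.37 and 7.66 FPKM in NDC lung, against 0.65, 0.55 and 0.32 FPKM in NDC liver, a difference of 2.58 as deposited and 1.76 after scaling (adjusted p = 1.94e-16 and 9.47e-12). Over the 36 libraries of this fit *Grb10* reached the limit for testing only through lung. Its call therefore does not stand as support for a difference. *Akt1* had 78.5, 77.5 and 84.7 FPKM in NDC lung, against 23.3, 23.1 and 21.1 FPKM in NDC liver, a difference of 1.79 and of 0.49 after scaling.

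*Insr* and *Grb14* were lower in lung on both scales. *Insr* had 7.84, 10.2 and 9.43 FPKM in NDC lung, against 11.6, 13.2 and 11.8 FPKM in NDC liver, a difference of -0.39 and of -1.60 after scaling. *Grb14* had 26.2, 23.5 and 20.1 FPKM in NDC lung, against 33.9, 29.2 and 27.1 FPKM in NDC liver, a difference of -0.36 (limma adjusted p = 0.0218) and of -1.64 after scaling. The deposited call of *Grb14* was lost without lung NDC replicate 3 or liver NDC replicate 1. The receptor's inhibitors were thus split by tissue, with *Grb14* at 20.1 to 26.2 FPKM and *Grb10* at 7.37 to 8.97 FPKM in NDC lung, and with *Grb14* at 27.1 to 33.9 FPKM and *Grb10* at 0.32 to 0.65 FPKM in NDC liver. The other 6 members reversed with scaling, and as deposited the call of *Irs2* was lost without lung NDC replicate 2 or 3, without liver NDC replicate 3 (0.39, adjusted p = 0.294) and with the groups alone (0.0949).

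**Figure D5:**
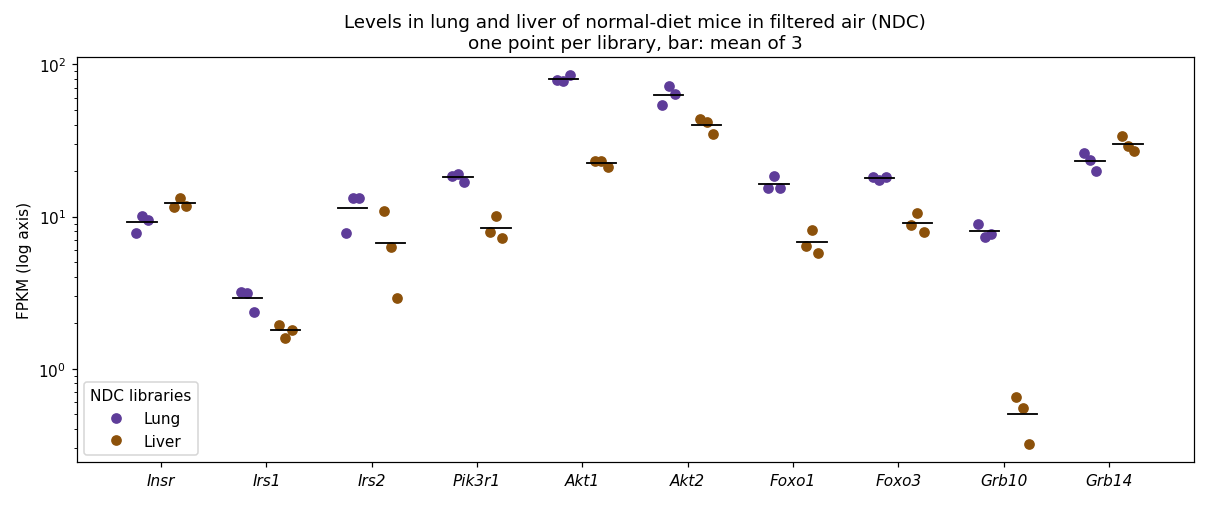
The 10 signalling genes in lung and liver of NDC mice. The y axis is FPKM on a log scale, points are libraries, 3 in each tissue, and lung stands left of liver. *Grb10* lay at 7.37 to 8.97 FPKM in lung and 0.32 to 0.65 FPKM in liver, while *Grb14* was lower in lung than in liver.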

How the data were processed

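Poly-A RNA from frozen lung and liver was sequenced on BGISEQ-500. The authors filtered the reads with SOAPnuke, used Bowtie2 with GRCm38 for alignment and obtained expression with RSEM. Not given in the sources used here are tool versions, strand setting and annotation release. The deposited unit is FPKM to 2 decimals, which the authors computed for each gene and library, and no scaling between libraries is stated. The authors' own tests on counts (DEGseq) were not used here. All 36 files entered, and groups came from the labels.

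log2(FPKM + 1) was modelled by limma (version 3.58.1, R 4.3.3) with a trended prior, all 18 libraries of a tissue sharing 1 estimate of spread, or all 36 for lung against liver. Tests were two-sided, with Benjamini-Hochberg adjustment over all genes of a comparison. The scripts were tested on simulated data. The members and lists were chosen with earlier results of these data known. The genes named were all members, up to 4 genes of each pathway list and comparison that passed with the smallest p, any insulin-repressed or insulin-induced gene, and for each member that passed the 3 genes with the highest Pearson r. Promoters came from RefSeq (GRCm38.p6). Each choice was changed in turn: a smaller pseudocount (0.1), no filter, median-ratio scaling, only the compared groups, a replicate block, an added fold limit of 1.5, each library left out, and in lung 3 covariates of marker levels. These covariates were the mean log2 levels of muscle and squamous markers together, of hepatocyte markers and of brown adipocyte markers. Protein sequences were not used here, and 1 pathway gene that the rule names is not reported here. Figures were drawn with matplotlib 3.10.9 in Python 3.11.15.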

Additional observations from a re-analysis of the deposited data

Results flagged for a closer look

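*Grb7*, an adaptor protein of the *Grb10* and *Grb14* family, differed in its PM effect between T1D and ND livers by a test of the difference itself. It had 17.0, 20.8 and 20.0 FPKM in T1DE livers and 36.5, 33.5 and 31.7 FPKM in T1DC livers, against 37.1, 41.6 and 46.3 FPKM in NDE livers and 32.7, 35.5 and 35.9 FPKM in NDC livers. The difference between the PM effects of T1D and ND mice was -1.04 on the log2 scale (SE 0.16, limma adjusted p = 0.00658), and -1.13 (0.00715) after scaling. It held in all 17 alternatives, with adjusted p from 0.00693 to 0.0239. *Grb7* fell in T1DE against T1DC by 0.79 (limma adjusted p = 0.00204, but 0.0567 with those groups alone), against NDE by 1.07 (2.01e-05) and against DIOE by 0.64 (0.000567). It was picked by the rule for pathway genes and was the 1 gene of the 7 lists to pass in a test of this kind. Of all liver genes, 0.416% passed in this test of T1D against ND mice. Groups of 3 libraries are too small for a test of single outlying libraries.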

How the results depend on the processing

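Of 55 calls on named genes, 16 held in every alternative that gave a value, and of 10 member calls between groups of a tissue 1 did (*Irs2*, liver T1DE against DIOE). Among the 16 were calls of liver *Pik3r3* and *Igf2*, genes that passed the filter only through T1D livers. The *Pik3r3* calls in T1DE against NDE and DIOE had no value when any T1DE library was left out. Also among the 16 was *Grb10* in lung NDC against liver NDC, which passed the filter only through lung. With each library left out in turn, the number of members passing in liver was 0 to 1 for T1DE against T1DC (1 with all libraries), 0 to 1 for DIOC against NDC (1), 0 to 3 for T1DC against NDC (1), 0 to 2 for T1DE against NDE (2), 0 to 2 for T1DC against DIOC (2), 2 to 3 for T1DE against DIOE (3) and 0 to 1 for the difference between the PM effects of T1D and ND mice (0), and 8 to 10 for lung NDC against liver NDC (10). Fitting the compared groups alone gave 0 for T1DE against T1DC, DIOC against NDC, T1DC against NDC and T1DC against DIOC. Without a filter it was 0 for DIOC against NDC and 1 for T1DC against DIOC. A fold over 1.5 left 0 for DIOC against NDC, 1 for T1DE against NDE and 1 for T1DC against DIOC. Median-ratio scaling left 0 for T1DC against DIOC and 6 for lung NDC against liver NDC. Lung counts stayed at 0 in every alternative. The cause of these changes was not tested.

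Scaling reversed 7 values. In lung NDC against liver NDC these were *Irs1* (-0.44, adjusted p = 0.0109), *Irs2* (-0.37, 0.328), *Pik3r1* (-0.20, 0.0983), *Akt2* (-0.67, 6.27e-05), *Foxo1* (-0.041, 0.778) and *Foxo3* (-0.31, 0.109), and in liver T1DE against DIOE *Akt1* (-0.13, 0.354). Scaling also changed the count of all liver genes passing to 713 for T1DC against NDC (1460 as deposited), 1413 for T1DE against NDE (3336), 875 for T1DC against DIOC (1687) and 1988 for T1DE against DIOE (6358). The share of those higher became 49.5%, 41.0%, 55.8% and 41.7%, where it was 88.9%, 92.8%, 91.3% and 96.3% as deposited. In T1DE against T1DC it was 60.9% after scaling and 80.1% as deposited, in DIOE against NDE 61.9% and 26.8%, and in lung T1DE against NDE 59.2% and 71.4%. Fitted alone, T1DE against T1DC gave 16 genes (171 with all groups), T1DC against NDC 80 and T1DC against DIOC 291. In lung the counts were 38 for T1DE against T1DC, 77 for T1DE against NDE and 173 for T1DE against DIOE with all groups, 0, 4 and 1 with the groups alone, and 25, 49 and 90 after scaling. The other lung counts with the groups alone were 4 for DIOC against NDC (16 with all groups), 0 for T1DC against NDC (15), 0 for T1DC against DIOC (4) and 107 for DIOE against NDE (4), and liver T1DE against NDE gave 4433 (3336) and liver NDE against NDC 2 (1). T1DC against DIOC in lung gave 14 after scaling and 1 with the replicate block, T1DE against DIOE in lung 90 and DIOE against NDE in lung 2 with that block, and the difference between the PM effects of T1D and ND mice in lung 7 (1 without the block). Leaving out any T1DE library put liver *Pik3r3* under the filter, which gave no value.

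Same-numbered libraries of different groups had a median r of 0.02 in liver (-0.27 to 0.27) and 0.04 in lung (-0.60 to 0.76). This pooled all groups of a tissue and set no lung against liver. It therefore could not decide whether E and C, or lung and liver, libraries of the same number were paired. The study matched mice in pairs by body weight, but the labels do not give the pairs. The numbers were not taken to pair samples, and lung and liver libraries were fitted as separate. With the replicate block 0 members passed in DIOC against NDC (*Pik3r1* adjusted p = 0.0542), and the block changed no other member count. The absolute depth is unknown, so counting error could not be set beside low values such as those of *Grb10* and *Igf2* in liver.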
